A study of Mus musculus with 6 samples.

Results

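The genes of the cytosolic ribosomal proteins were examined in whole kidneys of mouse embryos at E13.5, in 3 Fz4-/- samples and 3 Fz4+/+ samples. Members were all genes whose symbol in the platform annotation follows the naming pattern of these proteins (Rpl or Rps with a number and at most 1 letter a, l, x or y, or Rplp0 to Rplp2), on probe sets annotated with 1 gene. The pattern found 45 genes of 18194 that had such a probe set. Where a gene had several, the one with the highest mean over all 6 arrays stood for it. RefSeq lists 80 protein-coding mouse genes with such symbols, and 44 of them are among the 45. Another 28 appeared only on probe sets annotated with several genes, and 8 were not analysed here. The remaining member, Rps4l, is listed by RefSeq as a transcribed pseudogene. Rplp1, Rpl3, Rpl5, Rpl10, Rpl23 and Rpl24 are among those without a probe set of their own.

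Fzd4 encodes Frizzled-4 (Fz4), which receives Wnt and Norrin signals at the cell surface, and by their label the Fz4-/- embryos lack both working copies. Each of 3 litters gave 1 Fz4-/- and 1 Fz4+/+ sample. RNA was hybridised to Affymetrix MOE430.2 arrays, and the values are log2 expression values that the authors made with RMA. The labels give neither the construction of the allele nor the number of embryos in a sample, so p-values measure the spread between these samples only.

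The cytosolic ribosome joins amino acids into protein on a small subunit, which reads the mRNA, and a large subunit, which forms the peptide bond. Each subunit holds ribosomal RNA and many small proteins that are made in near-equal numbers, so their genes are active in every cell. Their mRNAs typically begin with a C followed by a run of pyrimidines (C or T in the DNA), the terminal oligopyrimidine tract, through which mTOR signalling controls their translation. Loss of 1 copy of some of these genes causes Diamond-Blackfan anaemia in humans, and free Rpl11 can bind Mdm2 and so stabilise p53.

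The sequence around the annotated transcript start was taken from RefSeq on GRCm38.p6 by gene symbol and was used for 39 of the 45 genes. Rps14 was left out by choice, so its absence does not mean that its symbol found no match. Windows run from 10 bases before the start to 20 bases from it, 5′ to 3′ on the gene's strand, and are shown because the tract is the feature that these genes are known to share. Capitals mark the longest unbroken run of C and T. The first 8 have a C at the annotated start followed by at least 4 pyrimidines. The last 3 are the gene with the brightest probe set and 2 others without such a start.
Rplp2, chr7:141447641-141447670, plus strand: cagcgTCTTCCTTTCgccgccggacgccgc
Rpl35, chr2:39005112-39005141, minus strand: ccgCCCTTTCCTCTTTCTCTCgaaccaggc
Rpl38, chr11:114668570-114668599, plus strand: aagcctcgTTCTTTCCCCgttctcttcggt
Rpl14, chr9:120571507-120571536, plus strand: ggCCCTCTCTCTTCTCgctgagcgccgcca
Rps10, chr17:27635225-27635254, minus strand: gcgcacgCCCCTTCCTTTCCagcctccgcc
Rps18, chr17:33955646-33955675, minus strand: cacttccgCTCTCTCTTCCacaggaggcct
Rps6, chr4:86857348-86857377, minus strand: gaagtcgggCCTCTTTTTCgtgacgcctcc
Rps27, chr3:90213629-90213658, minus strand: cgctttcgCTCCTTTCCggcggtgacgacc
Rpl41, chr10:128549149-128549178, minus strand: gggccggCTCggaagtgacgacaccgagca
Rps4x, chrX:102189372-102189401, minus strand: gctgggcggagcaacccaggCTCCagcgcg
Rpl39l, chr16:10170218-10170247, plus strand: aggCCTTTCCggatttccggtggtcgccat

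A start base C followed by at least 4 pyrimidines was annotated for 8 of 39 ribosomal protein genes (20.5%), against 813 of all 27025 genes of the table (3.01%). An unbroken run of at least 8 pyrimidines lay in the window of 16 of the 39 (41.0%), against 13.0% of all genes. The letters CCGGAAG, the core bound by ETS factors such as GABPA, occurred on either strand between 250 bases before and 50 bases after the start in 19 of the 39 (48.7%), against 9.93% of all genes. TATAAA in the 50 bases before the start was found in 0 of the 39 and in 3.15% of all genes. Rps14 was left out of the 39 by the chromosome it lies on, a cut that was not made among all genes. The table of all genes includes non-coding genes, an annotated start can lie some bases from the true one, and a match of letters is a description. The C start was annotated for bright Rplp2 and Rpl35 and for dim Rps27. Among the 39 it was annotated for 5 of the 29 that averaged 12 log2 or more (17.2%).

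The targeted gene and the arrays were checked first. Fzd4 read 4.37, 3.58 and 6.22 in the Fz4-/- samples of litters 1 to 3 on its brightest probe set, against 11.21, 11.12 and 10.31 in the Fz4+/+ samples. The first principal component held 70.8% of the variance. On it litter 3 lay highest, at 48.7 for its Fz4-/- and 70.1 for its Fz4+/+ sample. Litter 1 lay at -36.3 and -33.5, whereas litter 2 was split, at -0.098 for Fz4-/- and -48.9 for Fz4+/+. The excess of 3' over 5' signal lay between 0.64 and 0.86 log2 for actin in Fz4-/- samples and between 0.76 and 0.90 in Fz4+/+ samples. All 13 measured kidney markers, among them Six2, Wt1 and Pax8, passed the filter on low signal. Their mean lay between 9.75 and 9.83 in Fz4-/- samples and between 9.77 and 9.90 in Fz4+/+ samples. In Fz4-/- samples 6 averaged higher and 7 lower. Cited1 (-0.33) and Ret (-0.18) were lower without overlap of the genotypes, where the background was 1.21% of all tested probe sets. Of the 6 higher ones Osr1 (0.24) and Pax8 (0.21) differed most, with overlap. Lower without overlap were also 2 of 10 muscle markers and 3 of 9 neural markers. Those 3, Sox10, Dbh and Th, lay below the filter. The mean of the muscle markers ran from 5.94 to 7.62 in Fz4-/- and from 7.57 to 8.50 in Fz4+/+ samples, and all 10 markers averaged lower in Fz4-/-. Liver markers ran from 5.91 to 7.09 in Fz4-/- and from 6.14 to 7.66 in Fz4+/+ samples, with all 9 lower. Neural markers ran from 6.07 to 6.49 in Fz4-/- and from 6.24 to 7.25 in Fz4+/+ samples, with 8 of 9 lower. Other lists were mixed: 7 of 10 endothelial and 5 of 8 erythroid markers averaged higher in Fz4-/-. Lower there were 6 of 9 macrophage markers and 5 of 6 adrenal and gonad markers. The part of these cell types in the values of the ribosomal protein genes was not tested. In whole kidneys fewer cells of a type and less RNA per cell cannot be told apart.

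The ribosomal protein genes were among the brightest signals on these arrays. Of the 45, 34 averaged 12 log2 or more, a level chosen after their values were seen, and 33 lay in the top 1% of all probe sets. Each member was ranked by its brightest probe set against every probe set, so that choice raises the rank. Rpl41, the smallest protein of the ribosome, read 14.49, 14.44 and 14.37 in the Fz4-/- samples of litters 1 to 3 and 14.42, 14.49 and 14.43 in the Fz4+/+ samples. Rpl35 read 14.22, 14.21 and 14.20 in Fz4-/- and 14.19, 14.20 and 14.26 in Fz4+/+. Rpl7a read 13.99 in each Fz4-/- sample and 13.99, 14.05 and 13.96 in Fz4+/+ samples. For all 3 genes the values of the genotypes overlapped. With control probe sets left out, the highest value of every array was that of Rpl41.

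**Figure D1:**
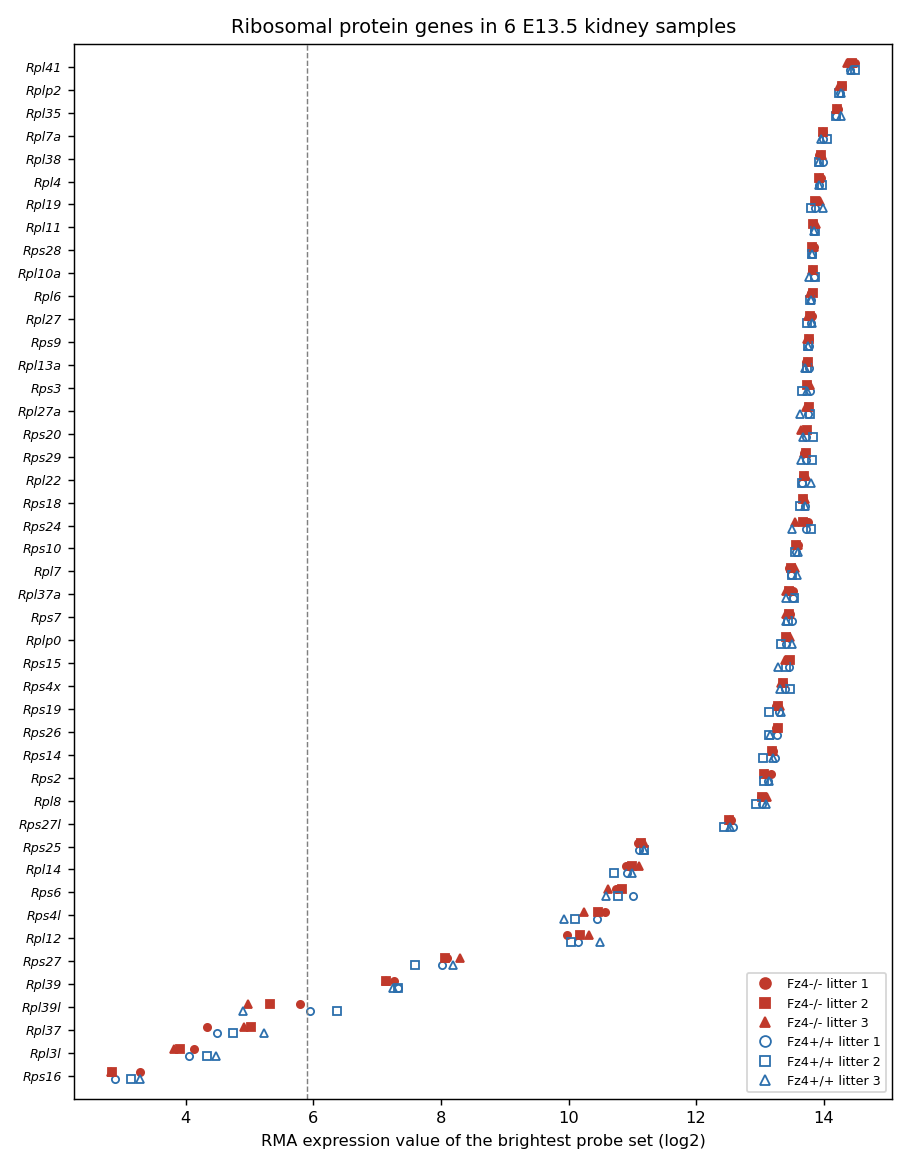
RMA expression value (log2, horizontal axis) of each of the 45 ribosomal protein genes in every sample. Filled red symbols are Fz4-/- and open blue symbols Fz4+/+ samples, the symbol's shape gives the litter, and the dashed line is the filter on low signal at 5.89 log2. The 34 genes at 12 or more show little spread, and the 4 genes left of the line were not tested.

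The stalk of the large subunit, a flexible arm that recruits translation factors, was represented by Rplp0, its base, and Rplp2. Rplp0 read 13.40, 13.41 and 13.47 in the Fz4-/- samples of litters 1 to 3, against 13.41, 13.34 and 13.496 in the Fz4+/+ samples. Rplp2 read 14.29, 14.28 and 14.24 in Fz4-/-, against 14.26, 14.25 and 14.27 in Fz4+/+. Rplp0 is often used as a reference gene, and its values varied by 0.16 log2 over the 6 samples.

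Among the bright members are 4 known for binding a regulator, for patterning or for disease. Rpl11, which can inhibit Mdm2, read 13.83, 13.83 and 13.87 in Fz4-/- samples of litters 1 to 3 and 13.84, 13.86 and 13.85 in Fz4+/+ samples. Rpl38, whose mutation in mice causes short tails and patterning defects of the axial skeleton, read 13.92, 13.96 and 13.98 in Fz4-/- and 13.99, 13.93 and 13.92 in Fz4+/+. Rps19, the gene most often mutated in Diamond-Blackfan anaemia, read 13.25, 13.29 and 13.32 in Fz4-/- and 13.30, 13.14 and 13.34 in Fz4+/+. The Fz4+/+ sample of litter 2 was the lowest for Rps19, and the genotypes overlapped for each of these genes. Rps14, whose loss underlies the anaemia of the 5q- syndrome in humans, read 13.20, 13.19 and 13.21 in Fz4-/-, against 13.24, 13.05 and 13.21 in Fz4+/+.

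The 11 members below 12 log2 ranged more widely. Rps25, Rpl14, Rps6, Rps4l and Rpl12 averaged between 10.19 and 11.14, Rps27 8.04 and Rpl39 7.24. Below the filter of 5.89 lay Rpl39l (5.55), Rpl37 (4.79), Rpl3l (4.12) and Rps16 (3.04). Rpl3l replaces Rpl3 in heart and skeletal muscle and Rpl39l is most active in the testis, whereas Rpl37 and Rps16 belong to every ribosome. A probe set's value depends on where its probes lie and how well they bind, so these values do not rank the genes by RNA amount. The same gene could give very different readings. Among the 22 members with several probe sets, the brightest and dimmest differed by between 0.00083 log2 for Rps14 and 10.5 log2 for Rps3. Of the 45 chosen probe sets, 12 carry the suffix _x_at, which Affymetrix gives to probes that may also bind other sequences, and ribosomal protein genes have many near-identical pseudogenes, so their signals may include such copies.

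Whether the loss of Fzd4 changed the ribosomal protein genes was asked in the fit of genotype across all tested probe sets. No member passed the test. Of the 45 genes, 23 were higher and 22 lower in Fz4-/- kidneys, with a median difference of 0.0015 log2, whereas 61.6% of all 27022 tested probe sets were higher and their median difference was 0.0334. With each gene of the array likewise at its brightest probe set, control probe sets left out, 9844 of 18193 were higher and the median was 0.0118. The split of the members depended on the scaling: with arrays centred on their medians 10 were higher and 35 lower, with a median of -0.0174 (54.9% of all tested probe sets higher), and with quantile normalisation 23 were higher and 22 lower (53.7%). limma called 0 of the 41 tested members at an adjusted p under 0.05, where the background was 0% of all tested probe sets. At an unadjusted p under 0.05 there were also 0 members, beside a background of 0.884%, and the smallest unadjusted p of a member was 0.174. Only 7 of the 45 differed by 0.1 log2 or more, against 44.9% of all tested probe sets, and these 7 were all among the 11 dim members. Of these 7, Rpl39l, Rpl3l and Rps16 lay below the filter, which the whole background passed. Differences also narrowed with level. Between 6 and 7 log2 the 5th to 95th percentiles of other tested probe sets ran from -0.37 to 0.40. Between 13 and 14 log2 they ran from -0.06 to 0.06. The 34 bright members lay between -0.04 and 0.09.

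The same measures were taken for the subunits and for other bright signals. Among 1070 other probe sets at 12 log2 or more, 67 differed by 0.1 or more, and their median difference was -0.0027. Their median level was 12.46 log2, against 13.72 in the 34 bright members. The large subunit genes had a median of -0.0098 (8 of 22 higher), the small subunit genes one of 0.0066 (13 of 21 higher), and both stalk genes were at 0.01. With arrays centred these became -0.0288 (2 of 22 higher) and -0.0124 (8 of 21 higher) for the large and small subunits. Because the fit draws every probe set's variance towards a common value, the SE of the members had a median of 0.0960, and their 95% intervals are wider than their own spread. For Rplp0 the difference was 0.01 with a 95% interval from -0.23 to 0.25. For Rpl41 it was -0.01, from -0.25 to 0.22. With a variance prior that follows the signal, the median SE was 0.0515 and 0 members reached an adjusted or an unadjusted p under 0.05. The design limits what 0 calls can mean: both Fzd4 probe sets above the filter also had limma's adjusted p of 0.999988.

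**Figure D2:**
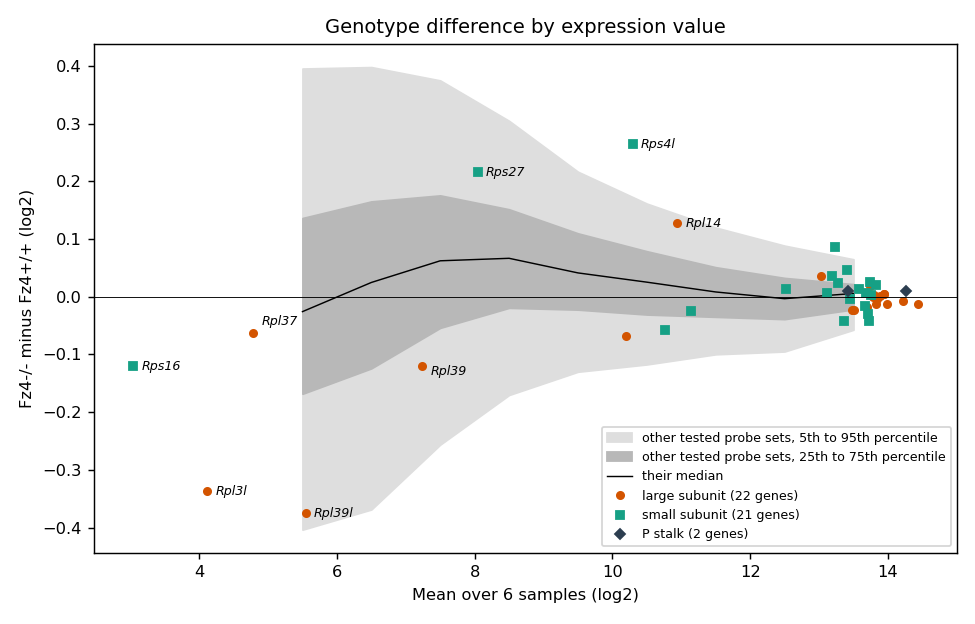
Difference between the genotypes (Fz4-/- minus Fz4+/+, log2, vertical axis) against the mean over 6 samples (log2, horizontal axis). Points are the 45 ribosomal protein genes, and the shaded bands give the percentiles of the other tested probe sets in bins of 1 log2 with at least 20 probe sets. The bands narrow towards bright signals, and Rps4l, at 0.26, is the member highest above them.

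The widest tested differences were those of dim or intermediate members, and none passed. Rps4l read 10.57, 10.47 and 10.24 in the Fz4-/- samples of litters 1 to 3, against 10.45, 10.10 and 9.93 in the Fz4+/+ samples. The Fz4-/- sample was the higher one in each litter, by 0.12, 0.36 and 0.31, yet the genotypes overlapped, since litter 3 was low in both. The difference was 0.26 ± 0.17 (SE), with limma's unadjusted p of 0.174, an adjusted p of 0.999988 and an exact permutation p of 0.2, where 0.1 is the smallest that 3 against 3 allow. A fit blocked on litter gave an unadjusted p of 0.0521 and limma's adjusted p of 1.

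Rps27, a zinc finger protein of the small subunit, read 8.10, 8.06 and 8.30 in Fz4-/- samples of litters 1 to 3 and 8.02, 7.59 and 8.20 in Fz4+/+ samples. The genotypes overlapped, and the Fz4+/+ sample of litter 2 was the lowest. The difference was 0.22 ± 0.18 (SE), made up of 0.08, 0.47 and 0.10 in litters 1 to 3. Rpl14, of the large subunit, read 10.89, 11.002 and 11.10 in Fz4-/-, against 10.91, 10.71 and 10.999 in Fz4+/+, a difference of 0.13 ± 0.12 (SE) in which that same sample was the lowest. Rps26, near the exit of the mRNA channel, read 13.26, 13.28 and 13.28 in Fz4-/- and 13.27, 13.14 and 13.15 in Fz4+/+, a difference of 0.09 ± 0.10 (SE). Rps15 and Rpl8 followed at 0.05 and 0.04. These 6 genes had the smallest unadjusted p among the members with higher means in Fz4-/- kidneys, each with an adjusted p of 0.999988 in limma.

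On the other side, Rpl39, a small protein of the large subunit's exit tunnel, read 7.26, 7.13 and 7.14 in Fz4-/- samples of litters 1 to 3 and 7.33, 7.32 and 7.24 in Fz4+/+ samples. It was lower in each litter, by -0.07, -0.19 and -0.10, and the Fz4-/- sample of litter 1 overlapped the Fz4+/+ sample of litter 3. Rpl39 differed by -0.12 ± 0.10 (SE), with limma's unadjusted p of 0.267. Rpl12 (-0.07), Rps6 (-0.06), Rps4x (-0.04), Rps20 (-0.04) and Rps29 (-0.03) completed the 6 genes with the smallest unadjusted p among the members with lower means. Rps6 is the protein that S6 kinase phosphorylates on growth signals, and Rps4x has a Y-linked copy in humans though not in mice.

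Few members kept 1 direction. In all 3 litters 3 of the 45 were higher in Fz4-/- (Rps28, Rps4l and Rps27), where the background was 14.2%, and 3 were lower (Rpl7, Rpl37a and Rpl39), where it was 7.28%. Values of the genotypes were free of overlap for 1 gene higher in Fz4-/-, against a background of 2.42%, and for 0 lower, against 1.21%. That gene, Rps28, read 13.84, 13.82 and 13.84 in Fz4-/- samples and 13.82, 13.81 and 13.82 in Fz4+/+ samples. Its difference was 0.0194 log2, with limma's unadjusted p of 0.836, and it is named, after its values were seen, because it was the sole such case.

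Within litters the median difference of the members was -0.0107 in litter 1, 0.0130 in litter 2 and 0.0030 in litter 3, with 16, 28 and 24 of 45 higher in Fz4-/-. All tested probe sets gave -0.0066, 0.116 and -0.00025. In litter 2, 68.2% of all tested probe sets were higher in the Fz4-/- sample, and no test of the members against them was made. On the chromosome of Fzd4 lie 7 members, the nearest being Rps3, a small subunit protein at the mRNA entry, with 52 measured genes between. Rps3 read 13.74, 13.74 and 13.78 in Fz4-/- and 13.79, 13.66 and 13.73 in Fz4+/+, and the 7 lay between -0.12 and 0.0262, the lowest being dim Rps16.

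Each gene's values were set against its own mean over the 6 samples. The median of these deviations over the 45 genes was 0.0063, -0.0018 and -0.0020 in the Fz4-/- samples of litters 1 to 3, against 0.0067, -0.0111 and 0.0026 in the Fz4+/+ samples. Over all tested probe sets it was -0.0352, 0.0211 and 0.0808 in Fz4-/- and -0.0283, -0.0999 and 0.0911 in Fz4+/+. The medians of the members were closer to 0 than those of the whole array in every sample. Among the 1070 other bright probe sets the medians lay between -0.0086 and 0.0092 in Fz4-/- and between 0.0010 and 0.0173 in Fz4+/+ samples, also close to 0.

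**Figure D3:**
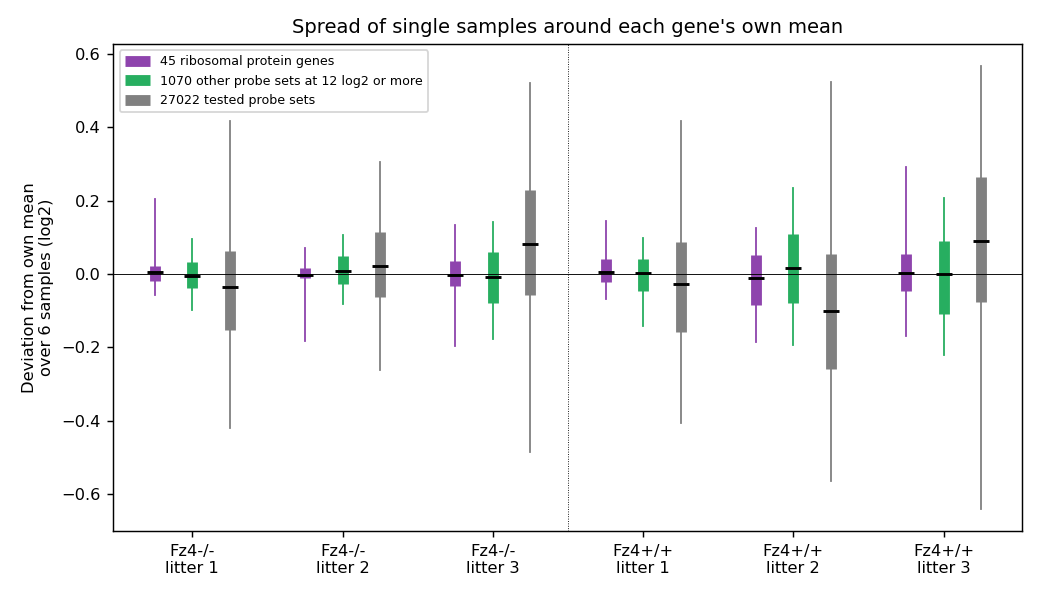
Deviation of each gene or probe set from its own mean over 6 samples (log2, vertical axis) in each sample (horizontal axis, Fz4-/- left of Fz4+/+). Purple marks the 45 ribosomal protein genes, green the 1070 other probe sets at 12 log2 or more and grey the 27022 tested probe sets; thick bars span the interquartile range, thin lines the 5th to 95th, and black ticks are medians. The purple medians lie within 0.012 of 0 in every sample.

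The spread around that centre was not the same in each sample. The interquartile range of the members' deviations was 0.0413, 0.0284 and 0.0670 in the Fz4-/- samples of litters 1 to 3, against 0.0627, 0.135 and 0.103 in the Fz4+/+ samples. The Fz4-/- sample of litter 2 was the most central and the Fz4+/+ sample of litter 2 the farthest out. For all tested probe sets the corresponding ranges were 0.215, 0.178 and 0.286 in Fz4-/- and 0.244, 0.313 and 0.341 in Fz4+/+, in which the Fz4+/+ sample of litter 3 was the widest. Per gene, the distance between the highest and lowest of the 6 samples had a median of 0.138 log2 over the 45 members and 0.120 over the 34 bright ones, against 0.242 over the other bright probe sets and 0.556 over all tested ones. It was under 0.2 for 35 of the 45, for 36.9% of the other bright probe sets and for 7.20% of all tested ones. These sets differ in level, with a median of 13.72 log2 in the 34 bright members and 12.46 in the other bright probe sets. Among other tested probe sets the median distance was 0.257 between 12 and 13 log2, 0.162 between 13 and 14 and 0.106 between 14 and 15. These bins held 913, 225 and 14 probe sets. Unlike the other bright probe sets, they still include probe sets annotated with several genes, some of them ribosomal protein genes. Of the members Rps9 had the narrowest range, with 0.0228 log2 between its extremes, and Rpl39l the widest, with 1.48. The value of Rps9 holds for its brightest probe set alone, since the next, which averaged 12.95, ranged over 0.92 log2. Rps9, Rpl7 and Rpl37a are named after their values were seen.

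How far the members differed between litters was asked in a fit with litter and genotype as terms. No member passed it either, and limma's F test called 0 of 41, beside 0% of all 27022 tested probe sets. At an unadjusted p under 0.05 there were 0 members, against a background of 23.0%. That count depended on the variance prior, which here too draws the members' variance towards a common value. With the trended and robust prior, which follows the signal, limma's F test put 6 members at an unadjusted p under 0.05. So were 8396 of the 27022 tested probe sets. The distance between the highest and lowest litter mean was 0.1 log2 or more for 17 of the 45 genes and 0.2 or more for 7, against 90.7% and 72.4% of all tested probe sets. Its median was 0.0924 over the members, 0.160 over the other bright probe sets and 0.334 over all tested ones. Over the 24 members with a probe set whose suffix is _at alone the median was 0.196. Of these 24 probe sets 21 passed the filter and 13 were the ones used before. Some of the rest were much dimmer, such as that of Rps10 at 7.24 against 13.57. This median is therefore not at a like level with the other bright probe sets. The other bright probe sets also had a lower median level, 12.46 log2 against 13.51 in the members. Without litter 3 the median range of the 45 was 0.0348, but leaving out a whole litter cannot widen this range.

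Members nonetheless took part in the separation of litter 3, in both directions. Both samples of litter 3 lay above all 4 others for 10 of the 45 genes, where the background was 36.9%, and below all 4 others for 11, where it was 15.5%. Among the 1070 other bright probe sets 291 lay above and 348 below, so a larger share below than above was not particular to the members. The higher ones included Rpl12, Rps27, Rpl19, Rpl8 and Rplp0, and the lower ones Rps24, Rps6, Rps20, Rps15 and Rpl39l. Of the small subunit genes 4 were above and 8 below, and of the large subunit genes other than the stalk 5 were above and 3 below.

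**Figure D4:**
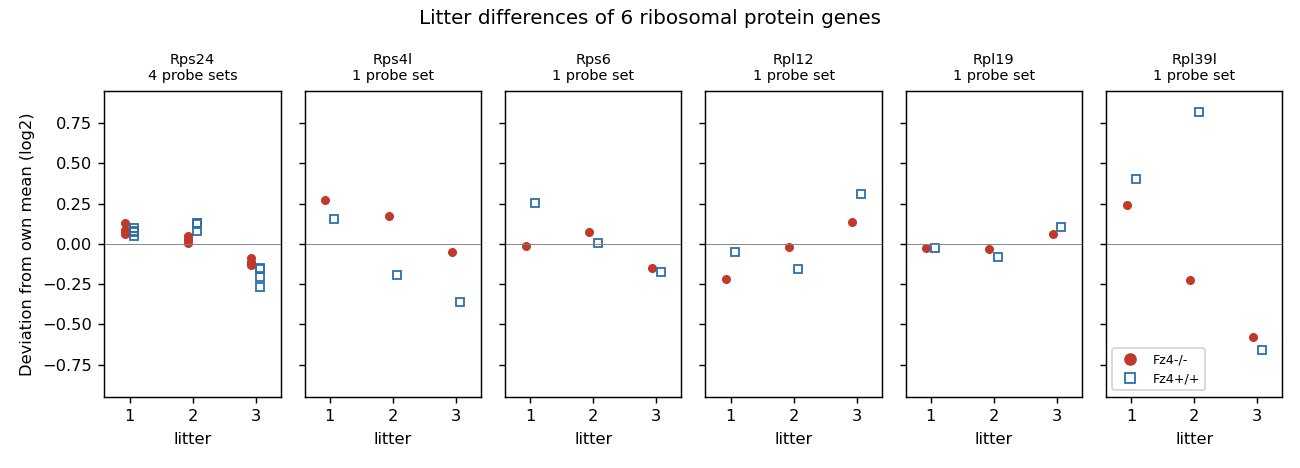
Deviation from the own mean over 6 samples (log2, vertical axis) by litter (horizontal axis) for 6 members. Filled red circles are Fz4-/- and open blue squares Fz4+/+ samples, and Rps24 is shown with its 4 brightest probe sets. Both litter 3 samples lie lowest for Rps24, Rps6 and Rpl39l and highest for Rpl12 and Rpl19, while Rps4l overlaps.

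Rps24, a small subunit protein whose transcript is alternatively spliced at its end, differed most between litters among the bright members. It read 13.75, 13.67 and 13.56 in the Fz4-/- samples of litters 1 to 3 and 13.72, 13.80 and 13.51 in the Fz4+/+ samples. Its litter means were 13.74, 13.73 and 13.53. Litter 3 was also lowest on the next 3 brightest of its probe sets, at 13.47, 13.48 and 13.21 in Fz4-/- and 13.40, 13.42 and 13.07 in Fz4+/+ samples. On its 2 dimmer probe sets, which averaged 9.97 and 4.97, litter 3 did not stand apart. These 4 probe sets all carry the suffix _x_at and may share sequence, so they are not independent. The F test gave Rps24 an unadjusted p of 0.232 and limma's adjusted p of 0.418. With the trended and robust variance prior its adjusted p was 0.0340, and it was then the sole member called among 11.1% of all tested probe sets.

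Rpl12, which forms the foot of the stalk, read 9.97, 10.17 and 10.33 in Fz4-/- samples of litters 1 to 3 and 10.14, 10.03 and 10.50 in Fz4+/+ samples. Rps6 went the other way, with 10.75, 10.83 and 10.61 in Fz4-/- and 11.01, 10.77 and 10.59 in Fz4+/+. Rpl19 read 13.86, 13.86 and 13.95 in Fz4-/- and 13.87, 13.81 and 14.00 in Fz4+/+. Litter 3 was thus highest for Rpl12 and Rpl19 and lowest for Rps6 in both genotypes, and limma's adjusted p of the litter term was 0.282 for Rpl12 and 0.396 for Rps6. Rpl19 is named after its values were seen.

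Some members are paralogs known for particular tissues or for stress. Rpl39l read 5.79, 5.32 and 4.97 in the Fz4-/- samples of litters 1 to 3, against 5.95, 6.37 and 4.89 in the Fz4+/+ samples. Its litter means of 5.87, 5.85 and 4.93 differed by 0.94, the most of any member, though all lay near or below the filter. Its ubiquitous counterpart Rpl39 had litter means of 7.29, 7.23 and 7.19. Rpl3l read 4.12, 3.91 and 3.81 in Fz4-/- and 4.04, 4.34 and 4.48 in Fz4+/+, all below the filter, while muscle markers were highest in the Fz4+/+ sample of litter 2. The part of muscle RNA in the Rpl3l values was not tested. Rps27l, a p53-induced copy of Rps27, was bright and even, at 12.55, 12.51 and 12.54 in Fz4-/- and 12.58, 12.44 and 12.54 in Fz4+/+.

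Other genes of the ribosome and of its production were examined from lists of known members, and limma called 0 of them for genotype or for litter. At an unadjusted p under 0.05 there were 0 for genotype, and for litter 1 translation factor, 4 genes of ribosome biogenesis, 4 of growth control, 1 of nucleolar stress and 2 mitochondrial ribosomal proteins. These counts of 26, 58, 17, 8 and 76 genes stand beside a background of 23.0%, so none of them is a result about its list. For 5 ribosomal genes whose symbols fall outside the pattern the 6-sample range had a median of 0.198 log2, and their differences lay between -0.03 and 0.08, with Rps3a1, the mouse gene for a core small subunit protein, at -0.03, Fau, which encodes a small subunit protein fused to a ubiquitin-like one, at 0.03, and Rpl7l1, a paralog of Rpl7, at 0.08. Of 26 translation factors 10 were higher and 16 lower in Fz4-/-, with a median of -0.0103 and differences from -0.10 for Eif5, which triggers GTP hydrolysis at the start codon, to 0.09 for Eif6, which keeps the subunits apart. Their 6-sample range had a median of 0.208.

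Of 58 genes of ribosome biogenesis 35 were higher and 23 lower, with a median of 0.0179, beside the 0.0334 of all tested probe sets. Nop58, a core protein of box C/D particles that guide methylation of ribosomal RNA, differed by -0.13 ± 0.12 (SE), Rrp12, needed for the export of subunits, by 0.22 ± 0.20, and Taf1d, a subunit of the RNA polymerase I selectivity factor, by -0.16 ± 0.15. limma's unadjusted p was 0.319, 0.324 and 0.327 for them. The mean of litter 3 exceeded that of litter 1 for 42 of the 58 and for 17 of the 45 ribosomal protein genes. It did so for 521 of the 1070 other bright probe sets and for 17718 of all 27022 tested ones. For Nop14, needed to process the small subunit's RNA, the values were 10.004, 10.05 and 10.46 in Fz4-/- samples of litters 1 to 3 and 9.90, 9.97 and 10.47 in Fz4+/+ samples, with limma's unadjusted p of 0.0138 and adjusted p of 0.161 for litter.

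Of 17 measured genes of growth control 13 were higher and 4 lower in Fz4-/-, with a median of 0.0784. Of all tested probe sets 61.6% were higher, with a median of 0.0334. Litter means of the 17 differed by a median of 0.333, near the 0.334 of all tested probe sets. Mycl, of the Myc family that drives ribosome production, differed by 0.31 ± 0.18 (SE), with limma's unadjusted p of 0.140. Deptor, an inhibitor of mTOR, read 9.87, 9.48 and 9.23 in Fz4-/- samples of litters 1 to 3 and 9.59, 9.60 and 8.66 in Fz4+/+ samples. In the list of p53 and nucleolar stress genes 5 of 8 were higher, with a median of 0.0455. Phlda3 and Pmaip1, both induced by p53, differed by 0.36 ± 0.27 and 0.38 ± 0.33 (SE), at limma's unadjusted p of 0.231 and 0.290.

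Mitochondrial ribosomal proteins, which build the separate ribosome of the mitochondrion, gave 76 genes, all of which passed the filter. Of these 54 were higher and 22 lower in Fz4-/-, with a median of 0.0513. Of all tested probe sets 61.6% were higher, with a median of 0.0334. For genotype limma called 0 of the 76, with 0 at an unadjusted p under 0.05. Mrps16 differed by 0.15 ± 0.13 (SE) and Mrps23 by -0.14 ± 0.13. Their 6-sample range had a median of 0.344 log2 at a median level of 10.71, against 0.138 at a median level of 13.51 in the cytosolic set. The mean of litter 3 exceeded that of litter 1 for 54 of the 76, beside 17718 of all 27022 tested probe sets.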

How the data were processed

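RNA of 6 E13.5 kidney samples, 3 Fz4-/- and 3 Fz4+/+, was measured on Affymetrix MOE430.2 arrays. RMA was used by the authors to summarise the scans, as the submitters' processing notes say without a version. Deposited log2 values, 1 per probe set and array, ran from 2.22 to 14.79 over 45101 probe sets and were used as they stand. Since RMA equalises the arrays, total RNA per cell was not measured. Scans were not used here.

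The platform annotation gave 1 gene for 34958 probe sets, several for 932 and none for 9211; Entrez numbers matched RefSeq (GRCm38.p6) for 34754. With 64 control probe sets left out, those whose mean reached the 40th percentile (5.89 log2), 27022 in all, were tested with limma 3.58.1 in R 4.3.3 (lmFit, eBayes, two-sided, Benjamini-Hochberg over all tested, threshold 0.05). Genotype was the sole term, and litter was tested by an F test beside genotype. The fits were run on simulated data to check that they return large added differences. The simulated noise was independent, with no litter effect common to the probe sets, so it does not show what these data could detect. Samples with the same number come from 1 litter by their labels and are therefore paired. Their deviations from the genotype means correlated by 0.577, 0.178 and 0.809 in litters 1 to 3, though the Fz4-/- sample of litter 1 correlated more with the Fz4+/+ sample of litter 2 (0.609). Members, lists and named genes were chosen with earlier results of these data known. Named by rule were the stalk genes, the 5 brightest and 5 dimmest members, up to 6 members in each direction by unadjusted p, the 8 with the widest range of litter means, paralogs, disease genes, the member nearest to Fzd4 and up to 3 genes of each list by unadjusted p. Alternatives covered the filter, scaling, probe set choice, variance prior, litter block, array weights and samples left out.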

Additional observations from a re-analysis of the deposited data

How the results depend on the processing

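No ribosomal protein gene was called for genotype under any setting, and 1, Rps24, was called for litter with the trended and robust variance prior; none was under the other settings run. With the litter as a replicate block the genotype fit called 0 probe sets, 841 being at an unadjusted p under 0.05 against 239 without it, and it changed no call. Array weights called 2 probe sets for genotype, both of Fzd4. For litter, the count over all tested probe sets was 3 with the 60th percentile filter, 3 without the genotype term, 1 with each gene's probe sets averaged and 2990 with the trended and robust prior. It ran from 0 to 1506 when single samples were left out, being 1506 with Fz4-/- of litter 2 omitted and 326 with Fz4+/+ of litter 2 omitted; the cause was not tested. The members' median genotype difference was -0.0174 with arrays centred on their medians and 0.0118 without litter 3, an alternative chosen after the data were seen. It ran from -0.0057 to 0.0067 when single samples were left out, so its sign is not settled. With probe sets whose suffix is _at alone, some of them much dimmer, the members' median range of litter means was 0.196 over 24 genes. It was 0.0348 without litter 3, though leaving out a whole litter cannot widen it. When single samples were left out it ran from 0.0707 to 0.108. The number of arrays limits what could be detected.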

Other observations

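Signals annotated with several genes, at least 1 of them a ribosomal protein gene, were left out of the comparisons because they cannot be assigned. There were 110 such probe sets, with a median level of 13.52 log2. In Fz4-/- samples 69 were higher and 41 lower, with a median difference of 0.0113 and a range from -0.54 to 0.23, and limma called 0 of the 103 tested, with 0 at an unadjusted p under 0.05. Their 6-sample range had a median of 0.170, and their litter means differed by a median of 0.0937, values near those of the 45 genes with probe sets of their own.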
